A study of Drosophila melanogaster with 10 samples.

Results

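Imp, Syp, chinmo, br, mamo and Eip93F are temporal identity factors of mushroom body neurons, the genes through which a neuron's birth date sets its fate. They were taken as named, and every probe set that the platform annotation assigns to exactly one of them was kept. The 6 genes, of 10844 with a probe set of their own, had 13 of the 13966 probe sets tested: 1 each for Imp, Syp and Eip93F, 3 each for chinmo and br, and 4 for mamo. Imp and chinmo are treated as early factors (4 probe sets), and Syp, br, mamo and Eip93F as late ones (9 probe sets).

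The arrays came from *Drosophila* pupae at 5 h after puparium formation (3 arrays) and at 0 h (6 arrays), around the time at which mushroom body neurons of the γ class normally start to prune their larval axons. Animals of both ages carried 1 copy of OK107-GAL4 (OK107-GAL4/+) with UAS-EcRB1[W650A] over UAS-mCD8::GFP in a yw/w background. The driver OK107-GAL4, an insertion at the eyeless gene, is active in mushroom body neurons of all classes and their neuroblasts, and here it expressed a membrane-bound green fluorescent protein and a dominant negative B1 form of the ecdysone receptor. The comparison therefore shows how the factors differed with age in animals that express this receptor form at both ages, and how far it blocked ecdysone signalling was not measured. The comparison holds no neurons with a normal receptor, since arrays of y,w animals were not analysed here. Cell bodies were cut out by laser, about 100 per capture, 40 captures were pooled for a replicate, and their RNA was amplified in 2 rounds. The labels call the samples biological replicates without saying how many animals each one pooled, so p-values measure the spread between these samples.

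A mushroom body neuroblast makes several classes of neurons in a fixed order, the γ neurons first, then the α′/β′ neurons and last the α/β neurons. The RNA-binding proteins Imp and Syp run in opposite gradients through this series: Imp is high in young neuroblasts and falls, and Syp is low and climbs. Imp promotes and Syp limits production of Chinmo, a BTB zinc-finger protein whose level in newborn neurons sets their class. Mamo, another BTB zinc-finger protein, follows Chinmo and is needed for α′/β′ identity. Broad, the product of br, and Eip93F are transcription factors of the ecdysone cascade that mark the pupal and the later metamorphic stages in many tissues. Each value here is an average over the cells captured, and fewer cells of a type cannot be told apart from less RNA per cell.

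The 0 h arrays were split by their correlations into 2 sets that no label names. The split is not sharp, since the range within the second set overlaps with the range between the sets. Across probe sets, replicates 1 to 3 correlated with one another at 0.989 to 0.991 and replicates 4 to 6 at 0.970 to 0.981, against 0.948 to 0.974 between these sets. The 5 h arrays correlated at 0.978 to 0.986 with the first set and at 0.949 to 0.973 with the second, so the differences of the factors above background are also given against each set, and so are those of some other genes. The actin control probe sets read further apart between the 3′ and 5′ ends at 5 h (8.47 to 8.63 on the log2 scale) than at 0 h (7.45 to 8.10; two-sided exact permutation p = 0.012, the smallest that 3 of 9 arrays can give). All 7 measured mushroom body markers had a mean above background. Of these ey averaged 9.22 at 5 h and 9.32 at 0 h, dac averaged 4.43 at 5 h and 4.35 at 0 h, and toy was higher at 5 h, as described with the other markers.

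The Syp probe set and 1 of the 3 br probe sets, the brightest, were higher at 5 h than at 0 h, by 1.71-fold and 1.67-fold. The other br probe sets did not pass the test. No probe set of Imp, chinmo, mamo or Eip93F passed the test in either direction. Thus 2 of the 13 probe sets rose and none fell, at a limma p under 0.05 adjusted over the whole array by the Benjamini-Hochberg method. Over the whole array 1.25% of probe sets passed, 1.01% higher and 0.236% lower. The groups did not overlap for the same Syp and br probe sets, both higher at 5 h, a separation that 5.39% of all probe sets showed upward and 4.40% downward. Both rises belonged to the late factors, where 2 of 9 probe sets rose, against 0 of the 4 early probe sets. No other member had an unadjusted limma p under 0.05, and by the exact permutation test 1 chinmo and 1 dim br probe set reached p = 0.048 without adjustment. The median difference, 5 h minus 0 h, was -0.01 on the log2 scale over the early probe sets and -0.08 over the late ones, against -0.07 over all probe sets. A value counts as above background here when it exceeds 3.73, the highest reading of 8 control probe sets for mouse and yeast sequences. By their mean over the 9 arrays 7 of the 13 lay above it, as did 9207 of the 13966 probe sets tested: the Imp and Syp probe sets, 1 of chinmo, 2 of br and 2 of mamo.

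**Figure D1:**
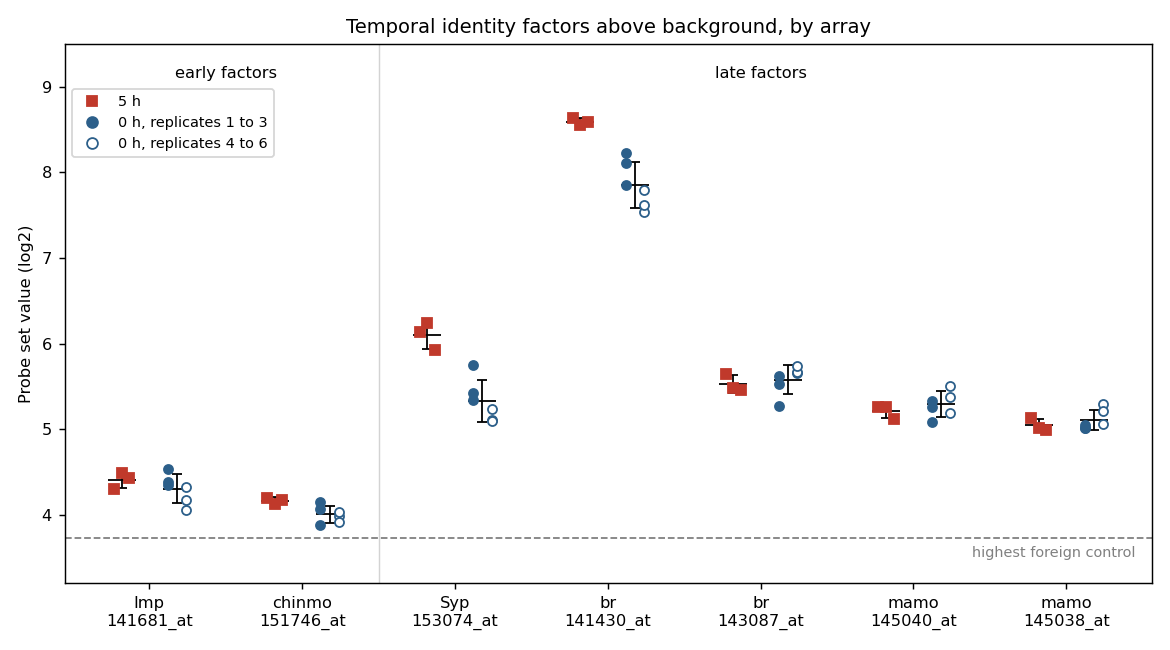
Probe set values (log2, y axis) of the 7 probe sets of Imp, chinmo, Syp, br and mamo above background, with each array as a point, bars at the mean ± SD and the dashed line at 3.73, the highest foreign control. The 5 h squares of Syp (5.92 to 6.24) and of the brightest br probe set (8.56 to 8.63) lie above every 0 h circle, and those of the other 5 probe sets overlap with the 0 h circles.

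Imp, the early RNA-binding protein, was detected on all 9 arrays at a level close to background. Its probe set (141681_at) read 4.30, 4.49 and 4.43 at 5 h. At 0 h it read 4.39, 4.35 and 4.53 in replicates 1 to 3 and 4.33, 4.05 and 4.17 in replicates 4 to 6. All 5 h values lay within the 0 h range, and the lowest 0 h values came from replicates 4 to 6, which did not overlap with replicates 1 to 3. Imp averaged 4.41 ± 0.10 at 5 h and 4.30 ± 0.17 at 0 h (SD over 3 and 6 arrays), a difference of 0.10 with a 95% interval from -0.16 to 0.36 (limma adjusted p = 0.67). Set against each set of the 0 h arrays, it was -0.02 for replicates 1 to 3 and 0.22 for replicates 4 to 6 (adjusted p = 0.96 and 0.20). A fall of Imp by more than 0.16 on the log2 scale lies outside the interval from all 0 h arrays. With 0 h replicates 1 to 3 alone the 95% interval reached down to -0.23, so the bound depends on the 0 h set.

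The gene chinmo, which acts downstream of both RNA-binding proteins, had 1 probe set above background and 2 below it. The brightest (151746_at) read 4.20, 4.13 and 4.17 at 5 h. At 0 h it read from 3.88 to 4.15 with a median of 4.01. The 5 h values were in the upper part of the 0 h range or just above it, and the groups overlapped. The difference of 0.16 had a 95% interval from -0.05 to 0.37 (limma adjusted p = 0.45), and it was 0.13 and 0.19 against the first and the second set of 0 h arrays. An exact permutation test on this probe set alone gave p = 0.048 before any adjustment, two-sided. The second probe set (142998_at) read 3.34 to 3.56 at 5 h and 3.31 to 3.93 at 0 h, above background on 1 array only. The third (145593_at) read 2.48 to 2.75 at 5 h and 2.60 to 2.91 at 0 h. Neither dim probe set gives a fold change.

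Syp, the late RNA-binding protein that limits chinmo, showed the largest difference among the 13 probe sets. Its probe set (153074_at) read 6.14, 6.24 and 5.92 at 5 h. At 0 h it read 5.34, 5.75 and 5.43 in replicates 1 to 3 and 5.11, 5.23 and 5.10 in replicates 4 to 6. Every 5 h array was above every 0 h array, and the 0 h array nearest to them was replicate 2. Syp averaged 6.10 ± 0.16 at 5 h and 5.33 ± 0.25 at 0 h (SD over 3 and 6 arrays). The log2 difference was 0.77, with a standard error of 0.15 and a 95% interval from 0.45 to 1.10 (limma adjusted p = 0.034, exact permutation p = 0.012).

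The size of the rise of Syp was also taken against each set of 0 h arrays. Its direction was fixed there, since every 5 h array read above every 0 h array. Both fits used the same 3 arrays at 5 h, so they are not separate evidence. With replicates 1 to 3 the rise was 0.59 (adjusted p = 0.019), in a fit where 8.11% of all probe sets passed. With replicates 4 to 6 it was 0.95 (adjusted p = 0.0011), where 22.0% passed. The call ended, with the direction kept, when 5 h replicate 1, 2 or 3 was left out (adjusted p = 0.12, 0.20 and 0.12) or 0 h replicate 3, 5 or 6 (0.054, 0.060 and 0.056), when the array with conflicting labels was counted as 0 h (0.077), and with the 3′ to 5′ difference of actin as a covariate (difference 0.59, unadjusted p = 0.075).

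The gene br encodes the Broad transcription factors, zinc-finger isoforms made by alternative splicing, and its 3 probe sets did not move together. The brightest (141430_at) read 8.63, 8.56 and 8.59 at 5 h. At 0 h it read 8.23, 7.85 and 8.11 in replicates 1 to 3 and 7.79, 7.54 and 7.61 in replicates 4 to 6. The 3 arrays at 5 h lay close together and above every array at 0 h, and the 0 h arrays were spread more widely. The probe set averaged 8.59 ± 0.04 at 5 h and 7.85 ± 0.27 at 0 h (SD over 3 and 6 arrays), and it rose by 0.74 (95% interval 0.41 to 1.07; limma adjusted p = 0.041, exact permutation p = 0.012).

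The second br probe set (143087_at), also above background on every array, read 5.65, 5.48 and 5.46 at 5 h and from 5.27 to 5.74 at 0 h with a median of 5.64. The 5 h values lay inside the 0 h range. Its difference was -0.05 with a 95% interval from -0.32 to 0.21, which does not reach the rise of the first probe set (limma adjusted p = 0.82). It was 0.05 with 0 h replicates 1 to 3 and -0.16 with replicates 4 to 6, neither past the test. The third (144385_at) read 2.81 to 2.92 at 5 h and 2.91 to 3.27 at 0 h, below background on all 9 arrays. No source used here states which Broad isoforms each probe set reads.

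With 0 h replicates 1 to 3 alone the brightest br probe set rose by 0.53 (adjusted p = 0.015), and with replicates 4 to 6 by 0.94 (adjusted p = 0.00083). In these fits 8.11% and 22.0% of all probe sets passed. For this probe set too the direction was fixed by the separation of the ages, and both fits used the same 5 h arrays. The call of this probe set ended, with the direction kept, without 5 h replicate 1, 2 or 3 (adjusted p = 0.14, 0.18 and 0.23) or 0 h replicate 2, 4, 5 or 6 (0.074, 0.054, 0.060 and 0.067), with the array of conflicting labels as 0 h (0.11), after repeated quantile normalization (0.078) or median centring (0.059), with a trended and robust prior (0.087), and with the actin covariate (difference 0.54, unadjusted p = 0.10).

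The gene mamo, the factor of α′/β′ identity, did not pass the test in any of its 4 probe sets. Its brightest (145040_at) read 5.26, 5.26 and 5.12 at 5 h and from 5.08 to 5.51 at 0 h with a median of 5.30. The next (145038_at) read 5.13, 5.02 and 4.99 at 5 h and from 5.01 to 5.29 at 0 h with a median of 5.06. In both, the groups overlapped. The differences were -0.08 (95% interval -0.33 to 0.17) and -0.06 (-0.29 to 0.17), with limma adjusted p of 0.72 and 0.77. With 0 h replicates 1 to 3 they were -0.01 and 0.02, and with replicates 4 to 6 -0.15 and -0.14, none past the test. These intervals do not reach a rise of the size seen for Syp and the brightest br probe set. The other 2 probe sets of mamo (145041_at and 145039_at) lay below background on all 9 arrays, at 3.16 to 3.44 and 2.80 to 2.97 at 5 h and at 3.24 to 3.53 and 2.90 to 3.27 at 0 h.

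Eip93F, which encodes a helix-turn-helix transcription factor that acts late in metamorphosis, had no reading above background at either age. Its probe set (143728_at) read 2.98, 2.87 and 2.86 at 5 h and from 2.91 to 3.31 at 0 h. The groups overlapped, and no fold change is given. Together with the dim probe sets of chinmo, br and mamo, 6 probe sets lay at or below background by their mean, and all 6 read slightly lower at 5 h, by 0.11 to 0.21 (limma adjusted p from 0.37 to 0.61). Values at background carry no order, and over all probe sets 36.7% read higher at 5 h.

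**Figure D2:**
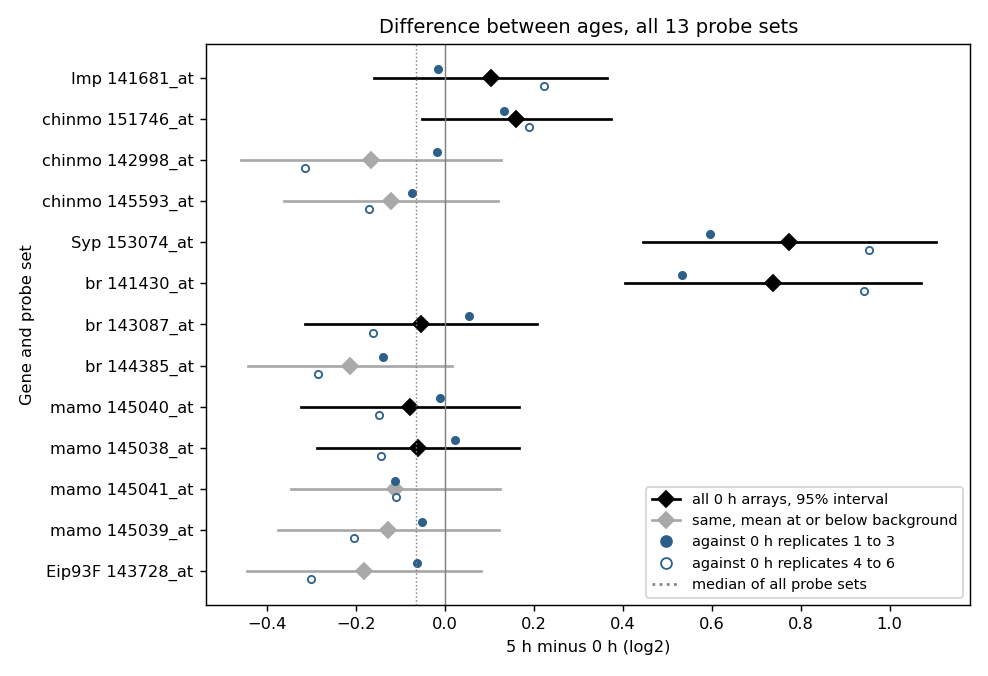
Difference in log2 value, 5 h minus 0 h (x axis), for the 13 probe sets, with diamonds and 95% intervals from the fit to all 0 h arrays (grey where the mean is at or below background) and circles for 5 h against each set of 0 h arrays. The interval lies above 0 for Syp (0.45 to 1.10) and for 1 br probe set (0.41 to 1.07) and spans 0 for the other 11.

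The late factors were then set against the early ones on the same array, which removes any shift that an array gives to all its probe sets. Only the change of such a difference between arrays can be read, since probe sets differ in brightness for a given amount of RNA. Syp minus Imp was 1.84, 1.75 and 1.49 at 5 h. At 0 h it was from 0.77 to 1.40 with a median of 0.94. The 5 h arrays all lay above the 0 h arrays, and the mean was 0.67 higher at 5 h on the log2 scale, 0.61 against 0 h replicates 1 to 3 and 0.73 against replicates 4 to 6. For the brightest br probe set minus Imp, the values were 4.33, 4.06 and 4.16 at 5 h and from 3.44 to 3.84 at 0 h, again without overlap, with a mean 0.64 higher at 5 h, 0.55 and 0.72 against the first and the second 0 h set.

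Against chinmo the picture was less uniform. The brightest br probe set minus chinmo was 4.43, 4.43 and 4.42 at 5 h and from 3.51 to 4.15 at 0 h, 0.58 higher in the mean at 5 h (0.40 and 0.75 against the first and the second 0 h set) and without overlap. Syp minus chinmo was 1.94, 2.12 and 1.75 at 5 h and from 1.12 to 1.87 at 0 h, 0.61 higher in the mean at 5 h (0.46 and 0.77), and the groups overlapped because 0 h replicate 2 read 1.87. The second br probe set and both measured mamo probe sets had differences of -0.24 to -0.16 relative to Imp and to chinmo, and their groups overlapped. Against 0 h replicates 1 to 3 all 3 differences relative to Imp turned slightly positive (0.07 for the second br probe set, 0.0061 and 0.04 for mamo), and those relative to chinmo were -0.14 to -0.08. Against replicates 4 to 6 all 6 were -0.38 to -0.33. No test was made on these differences, since they are combinations of factors chosen with earlier results known. Syp and the brightest br probe set were already separate by age on their own, which carries over to their pairs. How often pairs of other probe sets separate in this way was not counted.

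**Figure D3:**
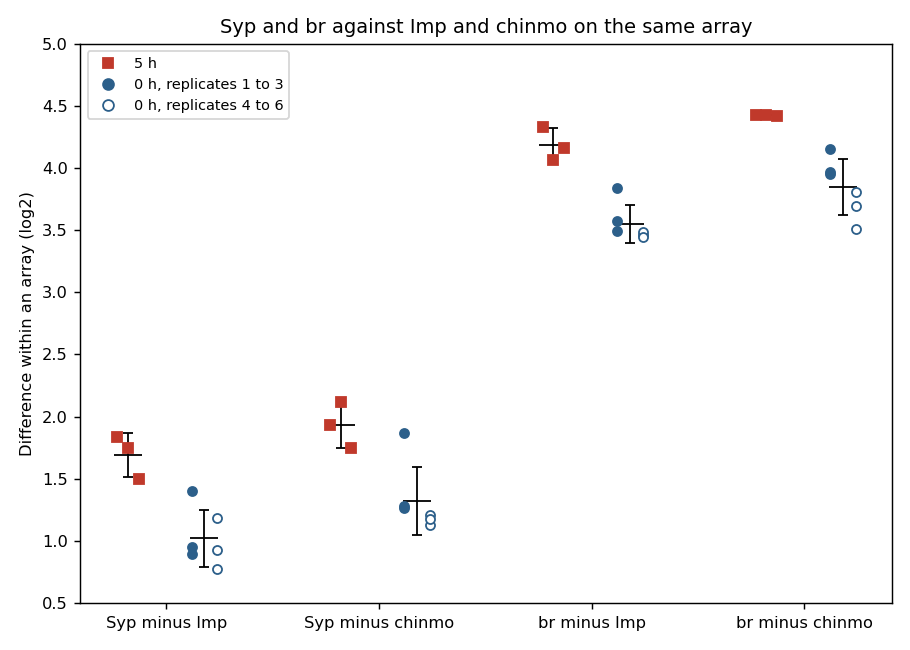
Difference between 2 probe sets on the same array (log2, y axis) for Syp and the brightest br probe set against Imp and the brightest chinmo probe set, with each array as a point and bars at the mean ± SD. The 5 h squares lie above all 0 h circles in 3 of the 4 pairs, and in Syp minus chinmo the 0 h replicate 2 at 1.87 lies above the lowest 5 h array at 1.75. Both late probe sets shown were already without overlap by themselves. The pairs of the other late probe sets above background are not shown, and all of them overlapped.

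The 2 sets of 0 h arrays, which were drawn from these same data, also read apart for some of these factors. The share of all probe sets that separate the sets without overlap was not counted, so no separation is read as particular to the factors. Syp, the brightest br probe set and Imp were each higher in all of replicates 1 to 3 than in any of replicates 4 to 6. Replicates 1 to 3 averaged higher than replicates 4 to 6 by 0.36 for Syp, by 0.41 for br and by 0.24 for Imp on the log2 scale. The second br probe set and the 145038_at probe set of mamo were the other way round, at -0.22 and -0.17, also without overlap. For Syp and the brightest br probe set, the 0 h arrays that read nearer to 5 h were thus replicates 1 to 3, which also correlated better with the 5 h arrays over all probe sets. No source used here states how the 0 h sets differed in staging, capture or handling.

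Genes upstream of these factors did not pass the test. The list held 15 genes: neuroblast temporal factors such as svp, cas, hb and pdm2, the activin branch that switches on EcR in these neurons (babo, put, Smox and the ligand gene myo), lin-28, and the receptor genes EcR and usp. All 15 were measured, 0 passed in limma and 0 had an unadjusted p under 0.05. The list's median was -0.16, against -0.07 over all probe sets, and 13 of 15 read lower at 5 h. Most probe sets of the whole array also read lower, with 36.7% reading higher. By their mean 10 of the 15 genes lay above background, so the count of lower readings is not taken as a trend. The largest differences belonged to Smox, which encodes the Smad of the activin branch, with 7.84 ± 0.27 at 5 h and 7.45 ± 0.41 at 0 h (adjusted p = 0.43), and myo, with 6.19 ± 0.13 at 5 h and 6.56 ± 0.46 at 0 h (adjusted p = 0.47; SD, n = 3 and n = 6). These differences depended on the 0 h set: Smox was 0.09 with replicates 1 to 3 and 0.68 with replicates 4 to 6 (adjusted p = 0.87 and 0.012), and myo was -0.74 and -0.0023 (adjusted p = 0.014 and 0.99). The activin receptor genes babo and put read below background on all 9 arrays. EcR itself averaged 5.10 ± 0.03 at 5 h and 5.23 ± 0.32 at 0 h (limma adjusted p = 0.70), with a difference of 0.15 with replicates 1 to 3 and -0.41 with replicates 4 to 6 (adjusted p = 0.49 and 0.028). No source used here states whether its probe set also reads the transgene.

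Of 10 measured genes of the ecdysone cascade other than br and Eip93F, 1 fell and none rose. Sox14, an ecdysone-induced transcription factor gene, read 5.83 ± 0.24 at 5 h and 6.59 ± 0.18 at 0 h (limma adjusted p = 0.028). Both br and Sox14 are ecdysone targets in other settings, and the brightest br probe set differed from Sox14 in direction. The second br probe set, at -0.05, did not pass (adjusted p = 0.82), so no direction is given for br as a gene. The median of this list was -0.28. Against 0 h replicates 1 to 3 and 4 to 6 the difference of Sox14 was -0.86 and -0.66. The call of Sox14 was lost without 0 h replicate 2, 3 or 6, and no gene of any list passed when 1 of the 5 h arrays was left out, with the array of conflicting labels as 0 h, or with the actin covariate. Of the other 9 genes, 3 had an unadjusted p under 0.05, and they are named here after their values were seen: Hr3 and Kr-h1 read lower at 5 h (-0.36 and -0.80) and Hr78 higher (0.40), with limma adjusted p of 0.24 to 0.29. The mean of Hr3 lay below background, with 0 arrays above it at 5 h and 3 at 0 h, so its difference gives no fold change. Kr-h1 was -1.35 with 0 h replicates 1 to 3 and -0.24 with replicates 4 to 6 (adjusted p = 0.0012 and 0.16). Eip75B and Eip74EF had no probe set named for them and were not analysed here.

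Partners and downstream genes were sparsely covered, with 3 of 7 measured and none past the test (median -0.03; 0 at an unadjusted p under 0.05). The gene brat, a translational repressor that limits neuroblast renewal, read 6.35 ± 0.07 at 5 h and 6.03 ± 0.35 at 0 h (limma adjusted p = 0.43). The gene pros, whose transcript Syp binds and stabilises, had values of 5.57 ± 0.13 at 5 h and 5.81 ± 0.25 at 0 h (adjusted p = 0.46). Among 10 measured genes that share the BTB domain of Chinmo, Broad and Mamo, 0 passed in limma and 1 had an unadjusted p under 0.05 (median 0.01). The largest differences were those of rib (0.89; 5.27 ± 0.27 at 5 h against 4.38 ± 0.50 at 0 h, adjusted p = 0.13) and bab2 (-0.27, adjusted p = 0.57). With 0 h replicates 1 to 3 rib was 0.48 and bab2 0.10 (adjusted p = 0.082 and 0.74), and with replicates 4 to 6 they were 1.31 and -0.64 (adjusted p = 0.0011 and 0.020).

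**Figure D4:**
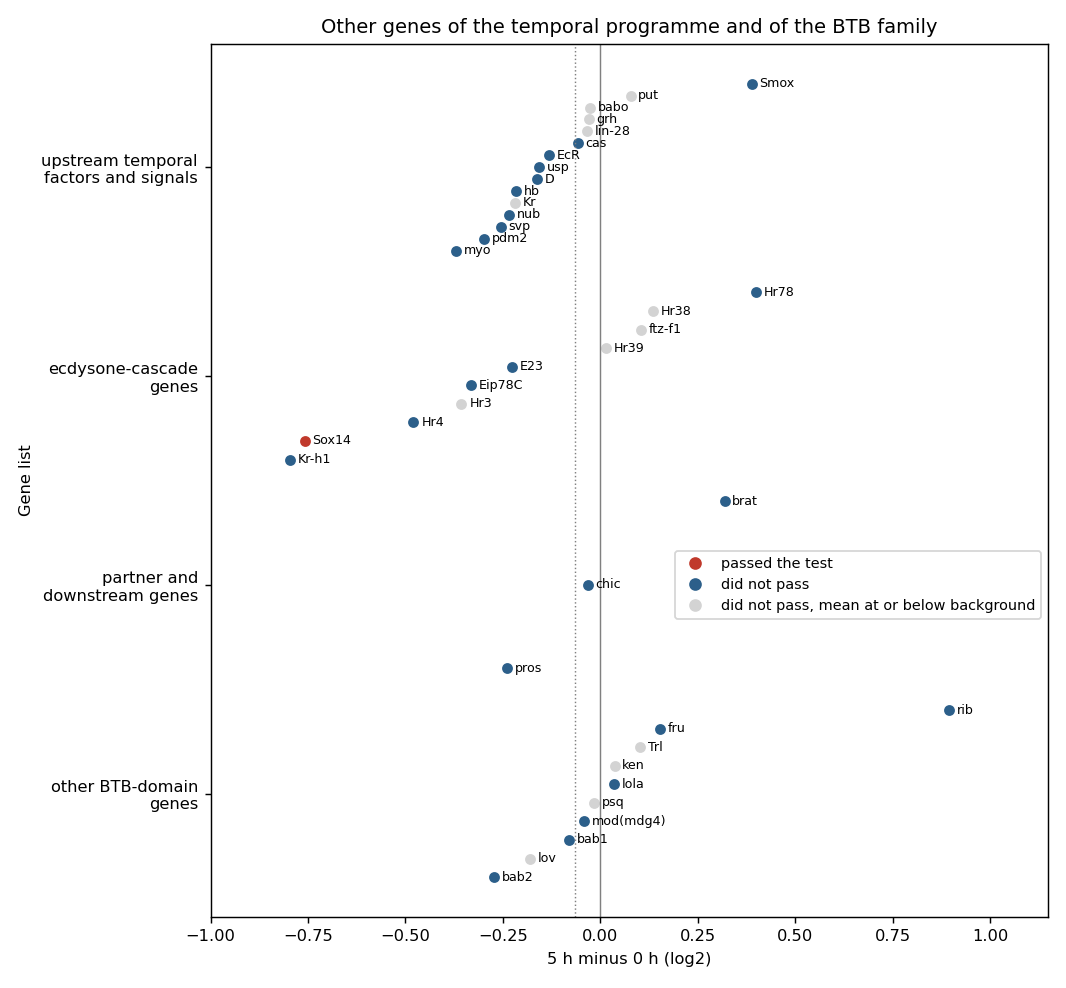
Difference in log2 value, 5 h minus 0 h (x axis), for 15 upstream genes, 10 ecdysone-cascade genes, 3 partner and downstream genes and 10 other BTB-domain genes, each as a point, with the dotted line at the median of all probe sets, -0.07. Only Sox14, at -0.76, passed the test.

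Of the cell type markers, 3 genes passed the test, toy, elav and nrv2, all higher at 5 h as Syp and the brightest br probe set were. Of 7 measured mushroom body genes 1 rose, toy (9.19 ± 0.15 at 5 h, 8.13 ± 0.40 at 0 h), and the summed level of the list was 11.63 to 11.80 at 5 h and 11.23 to 11.80 at 0 h (log2 of the summed signal). All 4 measured neuronal genes read higher at 5 h, with a median of 0.30 against -0.07 over all probe sets. Of them 2 had an unadjusted limma p under 0.05, and only elav passed the test (5.06 ± 0.19 at 5 h, 4.20 ± 0.28 at 0 h). Their summed level was 8.96 to 9.33 at 5 h and 8.49 to 9.25 at 0 h. Of 8 measured glial genes 4 read higher and 4 lower at 5 h, with a median of 0.06, and nrv2 rose (5.50 ± 0.06 at 5 h, 4.22 ± 0.41 at 0 h), with a summed level of 9.36 to 9.41 at 5 h and 8.39 to 9.27 at 0 h, without overlap, and the defining glial gene repo read 7.36 ± 0.34 at 5 h and 6.53 ± 0.61 at 0 h (limma adjusted p = 0.24), a difference of 0.33 with 0 h replicates 1 to 3 and 1.33 with replicates 4 to 6. Of the glial genes that read higher, alrm had the largest difference and did not pass (1.59, limma adjusted p = 0.15). It was 0.88 with 0 h replicates 1 to 3 and 2.30 with replicates 4 to 6 (adjusted p = 0.25 and 0.0038). Of those that read lower, Gs2 (-0.37) had the lowest p and did not pass (limma adjusted p = 0.23), and it read below background on every 5 h array. Both genes are named here after their values were seen. Neuroblasts also express Imp, Syp and chinmo. Of their 8 measured genes 0 passed in limma, 0 at an unadjusted p under 0.05, the summed level was 7.48 to 8.03 at 5 h and 7.51 to 7.83 at 0 h, and the defining genes at 5 h and 0 h read 4.70 ± 0.04 and 4.80 ± 0.27 for dpn and 6.59 ± 0.55 and 6.0 ± 0.44 for mira; ase, insc, grh and CycE read below background on all 9 arrays. None of the fat body or hemocyte genes passed. The 3 measured fat body genes summed to 7.45 to 9.51 at 5 h and 7.43 to 11 at 0 h, with Lsp2 at 7.40 ± 1.48 at 5 h and 7.47 ± 0.98 at 0 h. The 5 hemocyte genes summed to 7.11 to 7.52 at 5 h and 6.52 to 7.03 at 0 h, without overlap. Of them 2 read higher at 5 h, Pxn by 0.40 and crq by 1.39 (limma adjusted p = 0.35 and 0.063). The other 3, the defining hemocyte gene Hml with srp and NimC1, read lower and were below background on all 9 arrays. The summed level thus rests on Pxn and crq. How often sums of other genes separate without overlap was not counted. The part of these cell types and of the 3′ difference in the rise of Syp and the brightest br probe set was not tested. The actin difference itself separated the ages without overlap. The fit with it as a covariate therefore cannot tell age apart from the 3′ difference, and no conclusion is drawn from the calls lost there.

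The genes whose pattern over the 9 arrays was most like that of each factor were found by the root mean square difference between mean-centred log2 values. The search covered probe sets with 1 gene symbol and a mean above background, and left out genes whose symbol is a bare CG number. That left 5191 or 5192 candidates for a factor, and a gene left out could lie nearer. For the brightest br probe set, which varied with an SD of 0.43 over the arrays, they were klar, which positions nuclei and other cargo, at 0.09, and unc-13, a synaptic vesicle priming gene, at 0.10. Both read higher at 5 h without passing the test (0.67 and 0.81, limma adjusted p = 0.081 and 0.057). For Syp, with an SD of 0.44, they were Tim8, for mitochondrial protein import, at 0.14, and slgA, a proline dehydrogenase gene, at 0.15. Of these, slgA rose, by 0.84 (adjusted p = 0.014), and Tim8 read 0.56 higher (adjusted p = 0.063). For Imp (SD 0.15) they were Idi at 0.07 and Cpr62Ba at 0.08, and for the brightest chinmo probe set (SD 0.11) bisc at 0.05 and Cpes at 0.06. The second br probe set (SD 0.14) was nearest to Nak and Ctr1B, at 0.05 each. The mamo probe sets (SD 0.13 and 0.10) were nearest to Tfb4 and Vajk4, both at 0.05, and to tkv and Rab3-GEF, both at 0.04. The genes nearest to Imp, chinmo, mamo and the second br probe set had differences between the ages of -0.11 to 0.14, and none passed the test. All these genes were chosen by likeness on the same 9 arrays. Their differences between the ages therefore follow largely from the choice and are no separate result.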

How the data were processed

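Each sample was 1 single-colour Affymetrix Drosophila Genome array. The authors deposited 1 value per probe set, in log2 units. Per the submitters' processing notes the authors used RMA and Affymetrix Expression Console; no version is named, and no source says which arrays were run through RMA together. RMA corrects background and usually makes array distributions alike, and the array medians ran from 4.30 to 4.44. Precision is limited by the number of arrays.

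Arrays were grouped by the age in their descriptions. For 1 array the title gives 5 h and the description 0 h, and it entered no group. Of 14010 probe sets 44 Affymetrix controls were left out. The platform annotation gave 12443 of the rest 1 symbol, 327 several and 1196 none, and no gene was named from several. No genome build is named, so no coordinates are given. No arrays were identical (SD of the difference between any pair at least 0.17).

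The ages were compared without a filter, with the moderated linear model of limma 3.58.1 under R 4.3.3 (two-sided test, Benjamini-Hochberg adjustment, threshold 0.05, intervals at 95%), after the steps were tested on simulated data. Single measures had an exact permutation test over the 84 choices of 3 arrays among 9. A listed gene was represented by its brightest probe set. The text names all probe sets of the 6 factors, the genes of each list past the threshold or, with none, the 2 with the largest differences, defining markers, and the 2 genes nearest to each factor above background. The factors, lists and alternatives were chosen with earlier results of these data known. Same-numbered arrays did not deviate together (r = -0.40, 0.0049 and 0.22), so the numbers were not taken as pairs.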

Additional observations from a re-analysis of the deposited data

Results flagged for a closer look

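Of 27 groups of 6 arrays at 0 h that were examined, 2 held an array far from the others, and chance alone would mark about 1 in 20. For the brightest br probe set minus Imp, 0 h replicate 1 stood at 3.84, with the next array at 3.57, and the 5 h arrays were at 4.06 to 4.33. For Syp minus the brightest chinmo probe set, 0 h replicate 2 stood at 1.87, with the next array at 1.28, and the 5 h arrays were at 1.75 to 2.12.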

How the results depend on the processing

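Over all probe sets 174 passed the test, 2 of the 13 probe sets of the factors did, and 4 genes of the lists (Sox14, toy, elav and nrv2). With the array of conflicting labels as 0 h these counts were 0, 0 and 0 (1693 probe sets at an unadjusted p under 0.05), and as 5 h 352, 2 and 3. Against 0 h replicates 1 to 3 they were 1132, 2 and 9, against replicates 4 to 6 3077, 2 and 24, and with a term for the 0 h sets 537, 2 and 7. With the actin covariate they were 0, 0 and 0 (552 unadjusted). Quantile normalization gave 252 (157 higher, 95 lower), 1 and 3, median centring 160 (140 higher, 20 lower), 1 and 4, array weights 1809, 2 and 14, a trended and robust prior 141, 1 and 4, and a threshold of 0.01 gave 32, 0 and 0. The replicate block gave 743, 2 and 8 by the descriptions' numbers and 6, 0 and 0 by the titles' numbers, where the adjusted p was 0.16 for Syp and 0.15 for br. Leaving out 1 array gave 19 to 395, 0 to 2 and 0 to 5. Syp kept its direction in all 24 alternatives run (0.59 to 0.95) and its call in 14, and the brightest br probe set (0.53 to 0.94) its direction in all and its call in 10. Both counts of calls include the exact permutation test, at an unadjusted p of 0.012. Several alternatives share 1 estimate, so they are not separate checks of direction. Directions turned only in probe sets that had not passed. Against 0 h replicates 1 to 3, with the term or with the replicate block by descriptions, Imp was -0.017, the second br probe set 0.054 and the mamo probe set 145038_at 0.022 (0.0042 with the titles' block). With the actin covariate the chinmo probe sets were -0.014, 0.062 and 0.083 (brightest first), the second br probe set 0.17, and the dim mamo probe set 145041_at 0.027. The cause was not tested.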

Other observations

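The array whose title gives 5 h and whose age label gives 0 h read 5.59 for Syp and 8.18 for the brightest br probe set. Both values lay within the range of the 0 h arrays and below the lowest 5 h array. It read 4.08 for Imp, and 4.17 for the brightest chinmo probe set. The second br probe set read 5.64, and the measured mamo probe sets 5.37 and 5.04. Its differences within the array gave a mixed picture: Syp minus Imp was 1.51 and the brightest br probe set minus Imp 4.10, both inside the range of the 5 h arrays and above all 0 h arrays, while Syp minus chinmo was 1.42 and br minus chinmo 4.02, both inside the range of the 0 h arrays. No age is assigned to the array from these values.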
